A study of Mus musculus with 3 samples.

Results

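The aminoacyl-tRNA synthetases were examined as a list of 34 genes, 19 coding for cytosolic enzymes and 15 for mitochondrial enzymes, in 3 libraries of normal mouse liver. A member was taken as every row of the deposited tables that carried its Ensembl gene identifier. By that rule 33 of the 34 genes were listed, 18 cytosolic and 15 mitochondrial, among 13124 genes with a value in the tables. Aars, the cytosolic alanine enzyme, had no row under its own identifier. The libraries form a single group, wild-type (WT) C57BL/6 mice labelled male and healthy, with tissue given as liver. The labels do not give an age, a diet or a fasting state. They do not say whether the libraries, called replicates 1 to 3 here, came from separate animals, so the spread between them may be partly technical. The series is about hepatocellular carcinoma, and its tumours were not analysed here. There is therefore no treatment contrast, and no p-value is given.

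The tissue label held against its markers, since all 6 hepatocyte genes were present and their summed level was 33695 to 38388 FPKM (a read density scaled by transcript length and by sequencing depth). Kupffer cell genes summed to 84.9 to 133 FPKM, endothelial genes to 46.9 to 56.5 FPKM and bile duct genes to 2.16 to 3.69 FPKM. The summed level of 3 erythroid genes was 245, 666 and 199 FPKM in replicates 1, 2 and 3, highest in replicate 2. The sex label did not hold: Xist, the RNA of the inactive X chromosome, stood at 39.6, 34.2 and 38.2 FPKM, and Ddx3y, Uty, Kdm5d and Eif2s3y on the Y chromosome were listed in none of the libraries. The values below are from bulk tissue, in which fewer cells of a type and less RNA per cell cannot be told apart.

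Aminoacyl-tRNA synthetases join each amino acid to the transfer RNAs that carry it, and so set the meaning of the genetic code at the step before the ribosome. Animal cells keep separate sets for the cytosol and for the mitochondrion, both encoded in the nucleus. In the mouse, glycine and lysine are exceptions, because Gars and Kars each supply both compartments. Several cytosolic enzymes sit in a large multisynthetase complex held together by the scaffold proteins Aimp1, Aimp2 and Eef1e1. Many cytosolic members are known targets of ATF4, a transcription factor of the amino acid response, whereas liver also uses amino acids for plasma proteins, glucose and urea.

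The Kars gene shows how 1 locus can serve both compartments. Its annotated start exon and an alternative exon each hold a start codon, and the alternative exon opens the form directed to mitochondria. Both coding stretches are printed 5′ to 3′ as transcribed, from the GENCODE transcripts on GRCm38, with the start codon in capitals. The cytosolic stretch lies at chr8:112011210-112011268 on the minus strand and has 59 bases, and the alternative one lies at chr8:112008207-112008352 and has 146 bases.
Kars cytosolic start: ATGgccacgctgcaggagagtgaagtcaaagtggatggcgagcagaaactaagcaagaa
Kars alternative exon start: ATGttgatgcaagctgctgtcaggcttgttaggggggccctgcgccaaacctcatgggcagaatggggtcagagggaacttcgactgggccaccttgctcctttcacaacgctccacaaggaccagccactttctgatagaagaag

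The amino acid response is read at the DNA through a short element, and its core letters TGATGNAA, where N is any base, were searched on both strands of RefSeq promoters (GRCm38.p6, 250 bases before to 50 after the start). Of the 34 members, 25 had a promoter in that table. The letters occurred in 5 of the 12 cytosolic members with a promoter (41.7%), in 0 of the 13 mitochondrial ones, and in 4.51% of 27025 genes in the table. The 5 genes were Aars, Gars, Iars, Tars and Yars. The promoters of Aars, Gars and Tars are shown to 30 bases past the start, with each match in capitals, because they carry the match at 3 different distances from the start. Aars, the only one of the 5 with a pair of matches, is at chr8:111033592-111033871 (plus strand), Gars is at chr6:55037751-55038030 (plus strand), and Tars is at chr15:11399629-11399908 (minus strand).
Aars promoter: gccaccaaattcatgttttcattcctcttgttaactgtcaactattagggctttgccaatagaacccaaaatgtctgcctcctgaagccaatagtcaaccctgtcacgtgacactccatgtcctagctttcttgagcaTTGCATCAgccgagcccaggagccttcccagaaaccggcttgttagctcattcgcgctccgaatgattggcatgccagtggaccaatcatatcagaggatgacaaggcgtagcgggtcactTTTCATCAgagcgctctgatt
Gars promoter: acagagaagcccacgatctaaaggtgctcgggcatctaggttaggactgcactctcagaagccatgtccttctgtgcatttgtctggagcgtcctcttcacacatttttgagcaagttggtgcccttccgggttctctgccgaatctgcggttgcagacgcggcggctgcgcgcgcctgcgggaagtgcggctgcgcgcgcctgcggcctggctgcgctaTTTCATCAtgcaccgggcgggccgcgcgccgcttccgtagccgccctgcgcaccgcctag
Tars promoter: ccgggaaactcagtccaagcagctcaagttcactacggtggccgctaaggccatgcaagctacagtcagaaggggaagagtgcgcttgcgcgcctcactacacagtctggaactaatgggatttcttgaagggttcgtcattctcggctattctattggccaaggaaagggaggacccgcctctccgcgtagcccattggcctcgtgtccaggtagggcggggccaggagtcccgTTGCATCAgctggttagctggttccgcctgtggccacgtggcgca
Counted from the start site, the matches lay at bases -112 to -105 and 10 to 17 in Aars, -30 to -23 in Gars and -15 to -8 in Tars. In Iars the match lay at 8 to 15 and in Yars at 4 to 11. These positions count from the RefSeq start, and the nearest start listed in these livers differed from it by -143 bases for Yars, -30 for Iars, 37 for Aars, 6 for Gars and 0 for Tars. The matches in Aars, Gars, Iars and Tars read on the other strand (TTGCATCA or TTTCATCA as printed), and the match in Yars reads as TGATGCAA. A match is a description of the letters and does not show that a factor binds there. The 9 members without a promoter in the table were Cars, Hars, Hars2, Lars, Nars, Pars2, Rars, Vars and Wars.

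Each row of the tables gives an event of a transcript, such as a first exon, a last exon or a skipped exon, with the FPKM of the transcripts that hold it. The value of a gene is here the largest of its summed first exons, its summed last exons and its highest internal event. Transcripts that no listed event covers are missed, which lowers a gene value, and reads of a gene that shares sequence or position can raise it. Means are given with the SD over the 3 libraries. Read counts were not part of the tables, the depth is unknown, and no counting interval can be given.

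Among the cytosolic enzymes, the highest levels belonged to Nars, Tars and Dars, which charge asparagine, threonine and aspartate. Nars stood at 27.8, 28.8 and 29.2 FPKM (28.6 ± 0.73), and its libraries differed by a CV (SD over the mean) of 2.56%. Tars stood at 20.9, 32.6 and 26.2 FPKM (26.6 ± 5.89), lowest in replicate 1 and highest in replicate 2. Dars, a member of the multisynthetase complex, stood at 23.2, 29.3 and 27.0 FPKM (26.5 ± 3.10). The levels of these 3 genes overlapped between libraries, so their order is not resolved. Gars followed at 20.8, 17.96 and 18.1 FPKM (18.9 ± 1.58), below all libraries of Nars and Dars and just below the 20.9 FPKM of Tars in replicate 1. Eprs, which joins the glutamate and proline activities in 1 protein, stood at 13.3, 15.5 and 17.9 FPKM (15.6 ± 2.31).

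The middle of the cytosolic class was close together. Kars had a mean of 14.4 ± 4.68 FPKM, Hars 13.3 ± 0.63, Qars 12.7 ± 5.14, Sars 11.2 ± 0.37, Iars 10.1 ± 3.08, Rars 9.17 ± 1.67 and Yars 7.26 ± 1.66. These charge lysine, histidine, glutamine, serine, isoleucine, arginine and tyrosine, in that order, and neighbours among them overlapped. The 5 lowest cytosolic members were Cars, Farsa, Vars, Lars and Wars. Cars, for cysteine, stood at 5.71, 8.65 and 5.28 FPKM. Farsa, the alpha subunit of the phenylalanine enzyme, stood at 6.52, 7.29 and 5.67 FPKM, near its partner subunit Farsb at 9.76, 4.87 and 6.26 FPKM. The means of both subunits, 6.49 ± 0.81 and 6.96 ± 2.52 FPKM, differed by less than their SD. Vars, for valine, stood at 7.39, 5.68 and 5.65 FPKM, and Lars, the leucine enzyme, at 5.03, 4.96 and 5.18 FPKM. Wars, for tryptophan, was the lowest at 1.46, 1.91 and 2.52 FPKM (1.96 ± 0.53), and its highest library lay below the lowest library of every other listed cytosolic member.

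**Figure D1:**
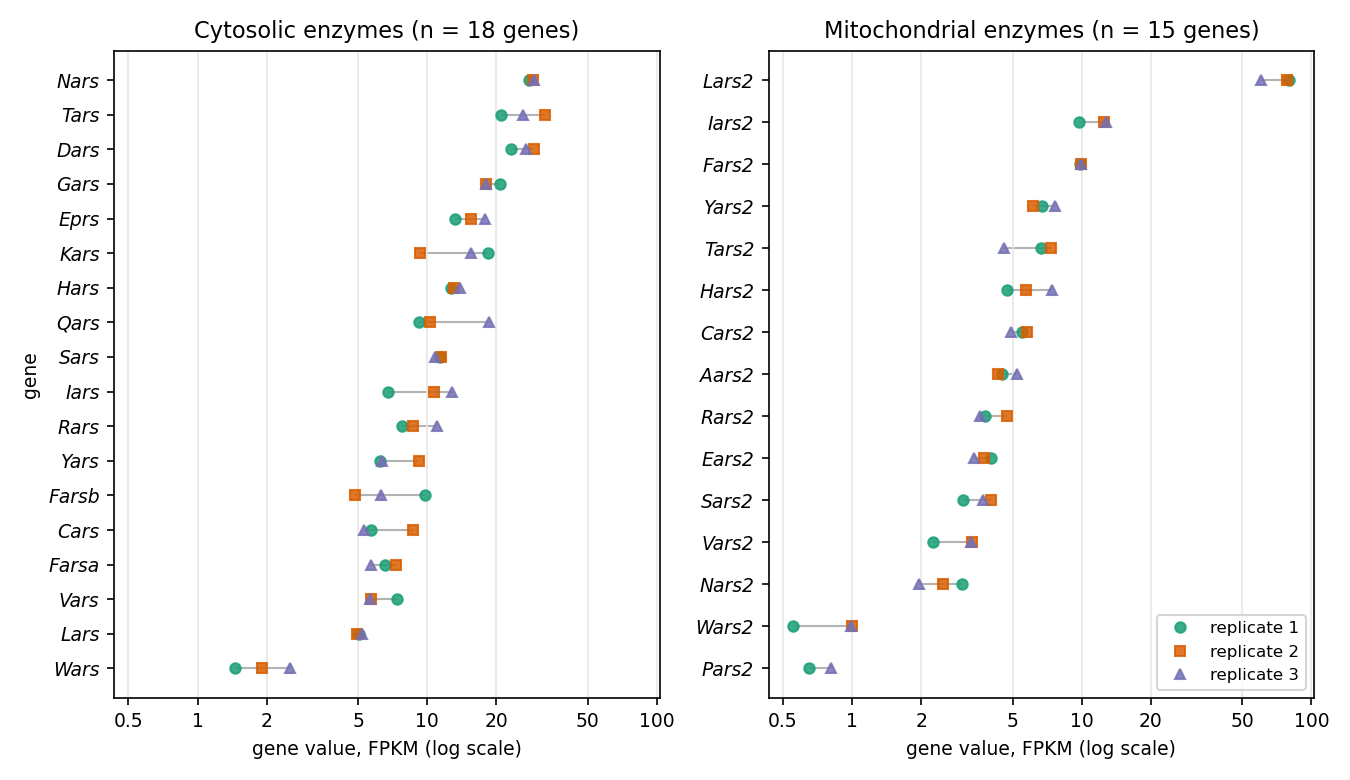
Gene value in FPKM on a log axis for the 18 listed cytosolic and 15 listed mitochondrial synthetase genes, ordered by mean, with 1 point per library and a grey line over their range. Lars2 lies at 60.3 to 80.2 FPKM, above every other gene on both sides, Wars2 and Pars2 lie below 1 FPKM, and Pars2 has no point for replicate 2, in which it was not listed.

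Lars2, the mitochondrial leucine enzyme, had the highest value of the whole list at 80.2, 78.5 and 60.3 FPKM (73.0 ± 11.0), rank 618 of all genes with a value. In its 3894-base transcript, 122 bases (3.13%) of the last exon's 3′ UTR matched other annotated transcripts over at least 50 bases at 95% identity or more. The partners were AA474408, with 50 bases at 96.0% identity, and Gm15564, with 72 bases at 98.6%, and both were listed in none of the libraries. The Lars2 value is uncertain to the extent that such reads were assigned to it, which was not tested. Its most upstream first exon alone carried 59.9, 69.1 and 49.9 FPKM, above every other member in each library. That FPKM is of the transcripts holding this exon, so reads of the shared stretch may be part of it. The most upstream start held 74.7, 87.9 and 99.6% of the first exon sum. A start 87863 bases downstream added 17.3 FPKM in replicate 1, and one 93953 bases downstream added 9.20 FPKM in replicate 2.

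The other mitochondrial members lay far below Lars2. Iars2, for isoleucine, stood at 9.70, 12.5 and 12.8 FPKM (11.7 ± 1.71), but 37.2% of its transcript is shared with Rab3gap2, which overlaps it on the other strand, and no source used here states whether the libraries kept strand. Fars2, the single-chain phenylalanine enzyme of mitochondria, stood at 9.83, 9.91 and 9.89 FPKM (9.88 ± 0.042), with the smallest CV of any member that averaged 1 FPKM or more, 0.43%. Yars2, for tyrosine, stood at 6.74, 6.12 and 7.65 FPKM, and Tars2, for threonine, at 6.67, 7.32 and 4.60 FPKM. Hars2 (5.98 ± 1.38 FPKM), Cars2 (5.40 ± 0.43), Aars2 (4.68 ± 0.49), Rars2 (4.05 ± 0.62) and Ears2 (3.72 ± 0.31) formed an overlapping middle, and charge histidine, cysteine, alanine, arginine and glutamate.

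The 5 lowest mitochondrial members were Sars2, Vars2, Nars2, Wars2 and Pars2. Sars2, for serine, stood at 3.04, 4.04 and 3.72 FPKM. Vars2, for valine, stood at 2.25, 3.32 and 3.31 FPKM, lowest in replicate 1. Nars2, the asparagine enzyme, stood at 3.01, 2.48 and 1.97 FPKM, lowest in replicate 3. The range of Nars2 overlapped that of Vars2, which overlapped that of Sars2. Wars2, for tryptophan, was below 1 FPKM in every library (0.556, 0.997 and 0.990). Pars2, for proline, was listed at 0.651 FPKM in replicate 1 and 0.812 FPKM in replicate 3, and had no row in replicate 2. The other 13 mitochondrial members averaged 1 FPKM or more, so the tryptophan enzyme was low in both compartments.

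Taken as classes, the cytosolic enzymes stood above the mitochondrial ones in each library. The median of log2(FPKM + 1) was 3.39, 3.43 and 3.69 for the 18 cytosolic members and 2.46, 2.52 and 2.49 for the 15 mitochondrial members. The difference of medians was 0.93, 0.90 and 1.20 (1.01 ± 0.17), and the median over all 9610 genes averaging 1 FPKM or more, 2.78, lay between the classes. A sign permutation over 3 libraries cannot go below an exact two-sided p of 0.25, so none is given. With last exons alone the difference was 0.83, and with Aars placed by position it was 1.08. By level, 10 of 18 cytosolic members (55.6%) and 2 of 15 mitochondrial members (13.3%) had a mean of at least 10 FPKM, against 34.1% of those 9610 genes. The classes overlapped widely: 16 cytosolic and 6 mitochondrial members lay above the all-gene median of 5.97 FPKM.

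Comparing the enzymes of the same amino acid gave a more varied picture. Of 16 pairs, 15 had both genes listed. The cytosolic enzyme was higher in all 3 libraries in 10 pairs, the mitochondrial enzyme in 3, and 2 pairs changed sign. This count includes Eprs and Pars2 with the missing Pars2 row of replicate 2 taken as 0. The pairs are not all independent, since Eprs was paired with both Ears2 and Pars2, and Fars2 with both Farsa and Farsb. The largest gap with both genes listed throughout and the cytosolic one higher was asparagine, where Nars exceeded Nars2 by 2.84, 3.10 and 3.35 on the log2(FPKM + 1) scale (3.10 ± 0.25), an 11.5-fold ratio of mean FPKM. Threonine followed with Tars above Tars2 by 1.51, 2.01 and 2.28 (1.93 ± 0.39). For glutamate, Eprs exceeded Ears2 by 1.51, 1.80 and 2.10 (1.80 ± 0.30).

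For proline, Eprs exceeded Pars2 by 3.11 in replicate 1 and 3.38 in replicate 3. Serine (Sars over Sars2) differed by 1.61, 1.31 and 1.32 on the same scale, and histidine (Hars over Hars2) by 1.26, 1.06 and 0.82. Hars and Hars2 are read in opposite directions from overlapping starts, with 197 bases between the start sites and 195 bases of transcript in common, so part of either value may belong to the other if strand was not kept. Tryptophan (Wars over Wars2) differed by 0.66, 0.54 and 0.82 (0.68 ± 0.14), and by -0.48 with last exons alone. Arginine, at 1.00 ± 0.34, and valine, at 0.87 ± 0.43, had the cytosolic enzyme higher in each library, with a mean difference under 3 SD. Cysteine differed by 0.21 ± 0.26, less than the spread between libraries.

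Leucine ran the other way, with Lars below Lars2 by 3.75, 3.74 and 3.31 (a cytosolic minus mitochondrial difference of -3.60 ± 0.25). The ratio of mean FPKM was 14.4-fold in favour of Lars2, with the shared stretch in the last exon described above. For phenylalanine, Fars2 was above both cytosolic subunits in every library, by a difference of -0.54 ± 0.16 for Farsa and -0.50 ± 0.45 for Farsb, whose difference in replicate 1 was only -0.0093. Isoleucine changed sign, at -0.46, -0.20 and 0.0029. Tyrosine changed sign too, at -0.098, 0.52 and -0.23. The spread between libraries exceeded the mean difference for both. The median over the 15 pairs was 0.87. It depended on which end of the transcripts was read: first exons alone gave 0.74 over 15 pairs, and last exons alone gave -0.13 over 12 pairs, with 6 pairs in each direction. The last exons of several cytosolic genes were barely listed, with mean last exon sums of 0.063 FPKM for Qars and 0.361 FPKM for Wars, while Yars had a last exon in replicate 2 alone (1.03 FPKM) and Farsa in replicate 1 alone (0.742 FPKM).

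**Figure D2:**
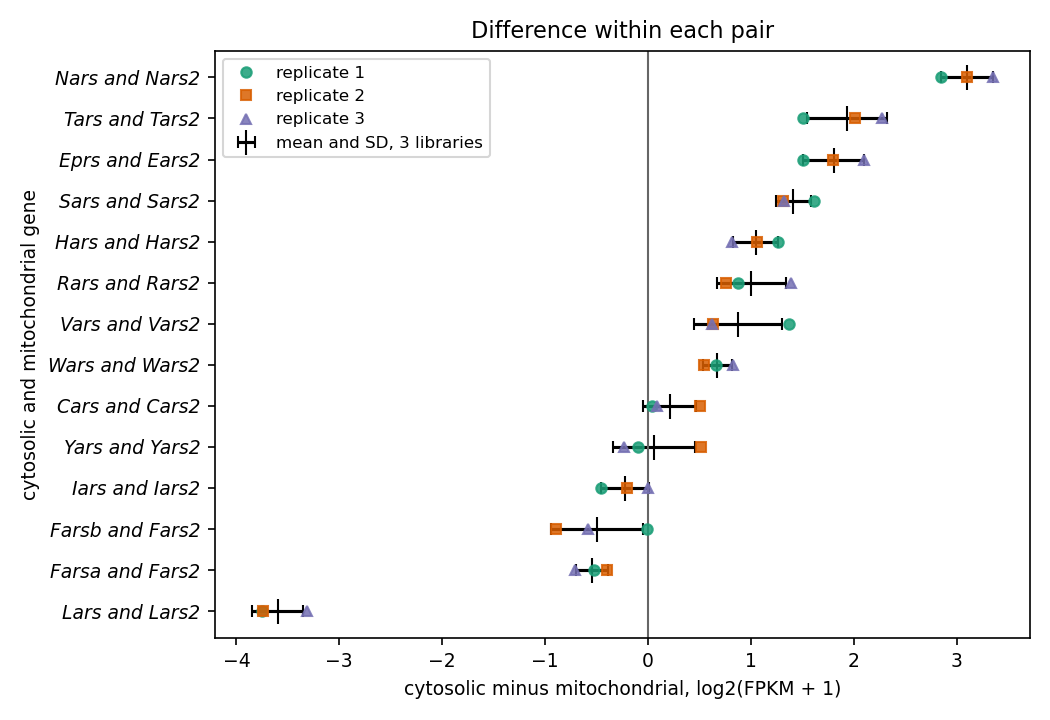
Difference in log2(FPKM + 1) between the cytosolic and the mitochondrial gene for 14 pairs, with 1 point per library and the mean with SD in black; Eprs and Pars2 is not drawn because Pars2 had no row in replicate 2. Points right of 0 have the cytosolic gene higher; Nars and Nars2 lie at 2.84 to 3.35, and Lars and Lars2 at -3.75 to -3.31.

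The members varied between libraries about as much as other genes. The median CV was 17.1% for the cytosolic class, 14.7% for the 13 mitochondrial members that averaged 1 FPKM or more, and 18.2% for all genes at that level. A CV above 30% was found in 4 of 18 cytosolic members and 0 of those 13 mitochondrial members, against 24.6% of all genes at that level. The 4 were Qars, Farsb, Kars and Iars, and Cars had the next largest at that level, 28.0%. Left out as below 1 FPKM were Pars2 (CV 88.2%, its missing row taken as 0) and Wars2 (29.8%). Qars stood at 9.17, 10.3 and 18.6 FPKM, high in replicate 3, with a CV of 40.6%. Kars stood at 18.4, 9.26 and 15.4 FPKM, low in replicate 2, with a CV of 32.5%. Farsb was high in replicate 1 and low in replicate 2, with a CV of 36.2%. Iars, at 6.78, 10.7 and 12.8 FPKM, was low in replicate 1, with a CV of 30.4%. Its value came from the last exon in replicate 1 and from first exons in replicates 2 and 3. The Iars last exon alone was more even, at 6.78, 7.42 and 7.94 FPKM.

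Kars and Farsb were thus highest in replicate 1 and lowest in replicate 2, whereas Qars and Iars were highest in replicate 3 and lowest in replicate 1. Measured as log2(FPKM + 1) minus the gene's own mean, the cytosolic median was -0.097, -0.0021 and 0.030 in replicates 1, 2 and 3, and the mitochondrial median was -0.013, 0.084 and 0.043. Over all genes averaging 1 FPKM or more the medians were -0.0017, 0.012 and 0.0074. Replicate 1 was the lowest library for 10 of 18 cytosolic members (55.6%), against 37.4% of all genes. Leaving out replicate 2 brought the cytosolic median of replicate 1 to -0.026. Marker sums differed between the same libraries. The hepatocyte sum was 33695, 38388 and 37286 FPKM and the Kupffer sum 84.9, 133 and 121 FPKM, both lowest in replicate 1 like the cytosolic median, and the erythroid sum was highest in replicate 2. The median deviation of the 6 hepatocyte genes was -0.14, -0.030 and 0.15. The part of these markers in the members' deviations was not tested.

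**Figure D3:**
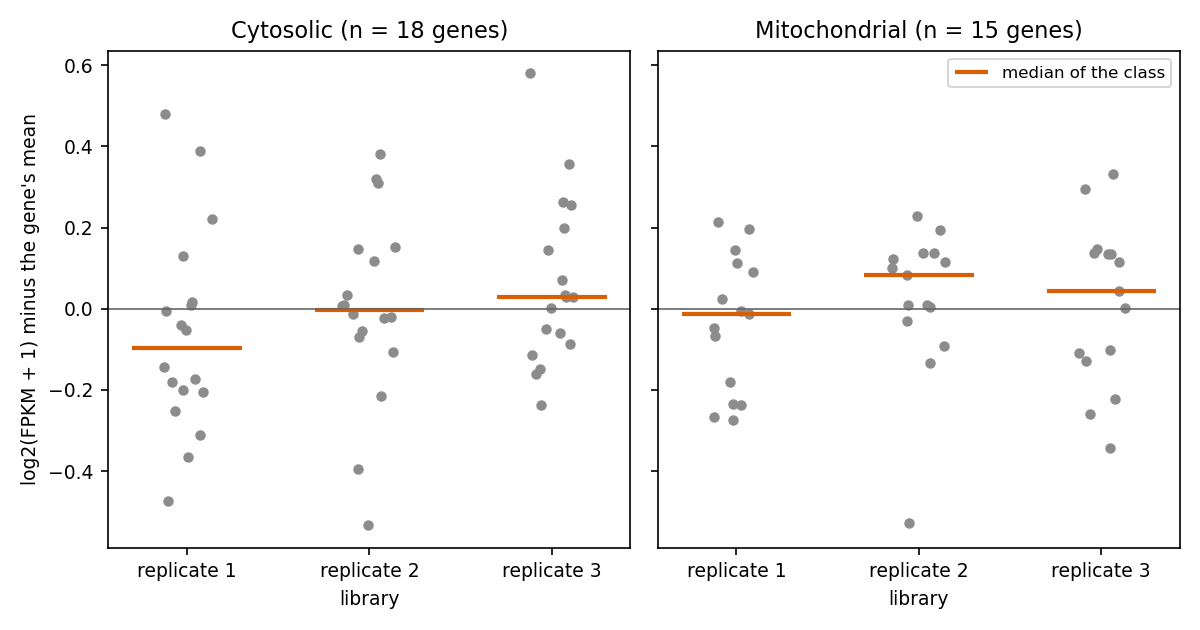
Deviation of each member from its own mean in log2(FPKM + 1), by library, for 18 cytosolic and 15 mitochondrial genes, with the class median as a bar; points are spread sideways for legibility, and Pars2 in replicate 2 is drawn with its missing row taken as 0. The cytosolic medians run from -0.097 to 0.030 and the mitochondrial ones from -0.013 to 0.084, small beside the scatter of single genes.

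The Kars events separated the transcripts by the alternative exon printed above. Transcripts without that exon carried 13.3, 6.10 and 11.3 FPKM, and transcripts with it carried 5.12, 3.16 and 4.13 FPKM. As shares of the sum, the form without the exon held 72.2, 65.8 and 73.2% (70.4% ± 4.002), and the forms with it held 27.8, 34.2 and 26.8% (29.6% ± 4.002). The order of the forms was the same in each library, although the gene value in replicate 2 was the lowest of the 3. Within the forms that hold the exon, a short extra exon of 58 bases at chr8:112008482-112008539 divided them further. The alternative exon alone held 20.3, 14.5 and 23.3% of the sum, and the alternative exon with the short exon held 7.42, 19.6 and 3.52%, highest in replicate 2. These shares describe transcripts, and the amount of either protein was not measured.

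**Figure D4:**
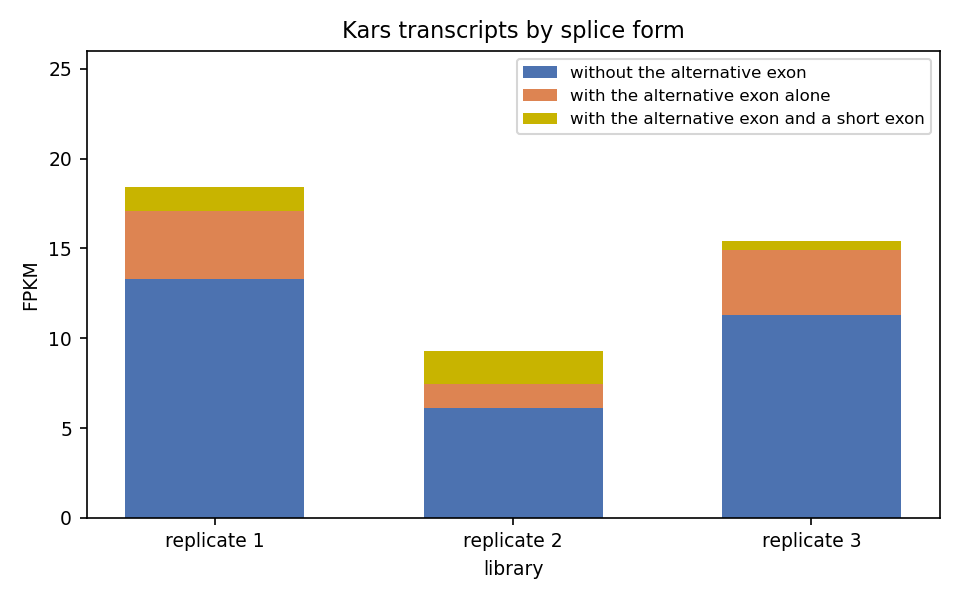
FPKM of the Kars splice forms stacked by library. The form without the alternative exon is the largest in each library (13.3, 6.10 and 11.3 FPKM), and replicate 2 has the lowest sum and the largest part with the short exon (1.82 FPKM).

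In Gars, the other gene that serves both compartments, compartment is set by the choice of start codon, which event tables do not separate. A single first exon held 98.9% ± 0.34 of its first exon sum. The first exon at the most upstream start carried 7.15, 9.45 and 10.6 FPKM, whereas the last exon sum was 20.8, 17.96 and 18.1 FPKM, so transcripts that reach the last exon were listed at a higher level than those with a listed start. With first exons alone its mean was 9.18 FPKM in place of 18.9.

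Across the 33 listed members there were 385 distinct events, 273 of them present in all 3 libraries. First exons numbered 68 and last exons 50. A single first exon was listed for 17 members, and 16 had more than 1. In 6 of those, at least 2 first exons each carried 10% or more of the sum: Farsa, Iars, Qars, Nars2, Pars2 and Tars2. The remaining events described exon skipping, intron retention and alternative exon boundaries.

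Iars had the most distant pair of strong starts. Its most upstream first exon carried 0.969, 3.24 and 4.62 FPKM, and a start 32019 bases downstream carried 0.757, 7.42 and 7.07 FPKM. The downstream start held 40.2, 69.2 and 55.1% of the first exon sum. Both starts were low in replicate 1, in which the last exon gave the gene value. A processed pseudogene on another chromosome, Gm4849, matches 2209 of the 4426 bases of the Iars transcript (49.9%), so the value of Iars is uncertain.

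Qars, the glutamine enzyme of the multisynthetase complex, had 9 listed first exons. The most upstream held 55.5, 63.8 and 26.5% of the first exon sum, the start 742 bases downstream 17.9, 9.50 and 32.5%, and the start 3844 bases downstream 4.23, 7.66 and 26.7%. The most upstream start itself was at 5.09, 6.56 and 4.93 FPKM, lower in replicate 3 than in the other libraries. The high Qars value of replicate 3 thus lay in the downstream starts, which stood at 6.05 and 4.96 FPKM there. Among its internal events, the exon at chr9:108509441-108509505 stood at 6.73, 7.53 and 11.0 FPKM, highest in replicate 3 as well. The retained intron at chr9:108512582-108512700 carried the same FPKM values as the start 742 bases downstream, 1.65, 0.976 and 6.05.

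Farsa had a start 10568 bases downstream of the first that held 16.7, 28.2 and 14.0% of the sum, highest in replicate 2. A retained intron at chr8:84868086-84868224 carried the same FPKM values as that start, 1.09, 2.05 and 0.795. In Tars2, starts 516 bases apart shared the sum, with the upstream one at 47.6, 64.9 and 49.4%. In Nars2 a pair of first exons shared the same start base and differed in their end, and the larger held 79.3, 94.3 and 94.2%. Pars2 had different single starts in replicates 1 and 3, 640 bases apart.

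**Figure D5:**
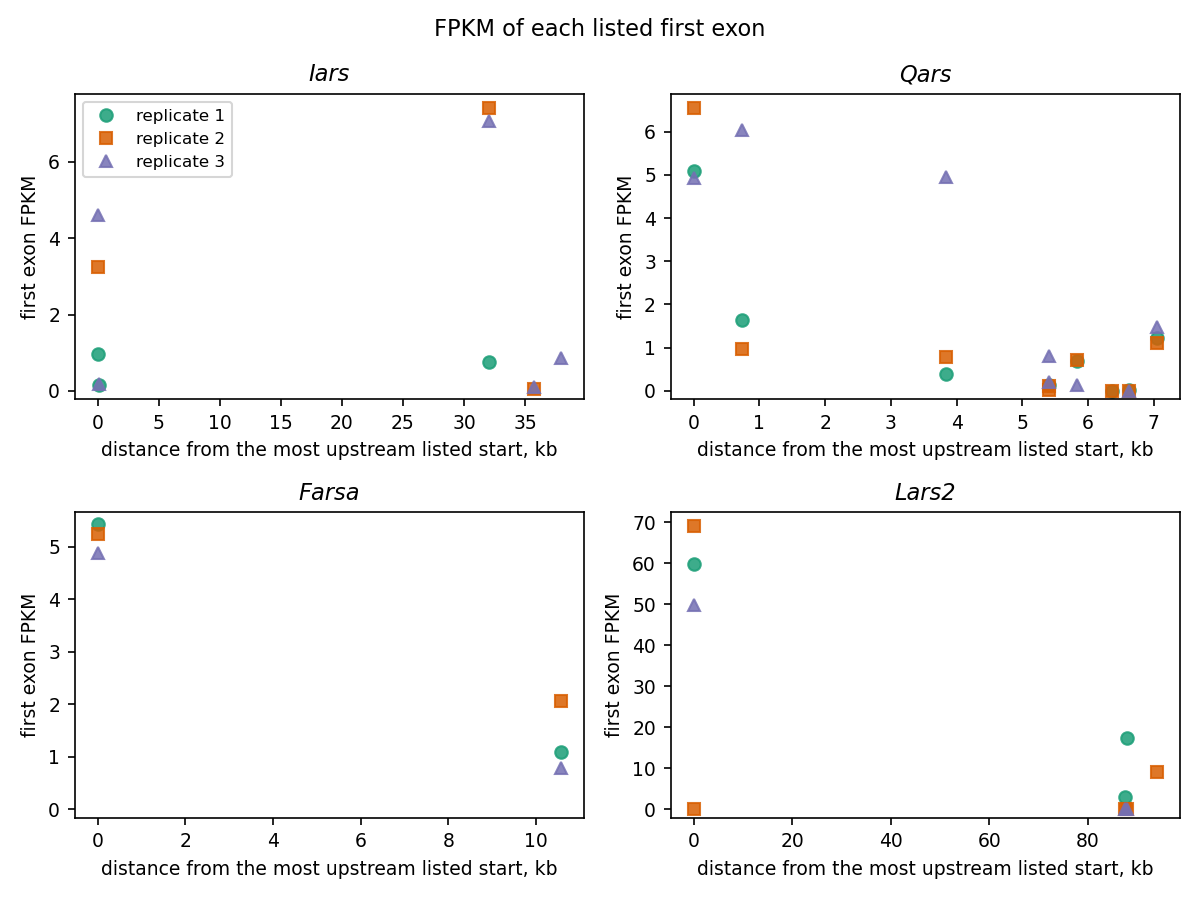
FPKM of each listed first exon of Iars, Qars, Farsa and Lars2 against its distance in kb from the most upstream listed start, with 1 point per library and no point where a first exon was not listed. Iars carries more at the start 32019 bases downstream in replicates 2 and 3, and Qars replicate 3 stands out at the starts 742 and 3844 bases downstream.

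Last exons were listed for 31 members, and for none in Eprs and Hars2. Of these, 23 had 1 last exon and 8 had more, and in Farsb, Cars2 and Tars2 at least 2 each held 10% or more of the last exon sum. Farsb switched between libraries: the last exon at chr1:78417975-78418222 carried 5.27 FPKM in replicate 1 and 6.02 FPKM in replicate 3 and was not listed in replicate 2, whereas the one at chr1:78425068-78425345 carried 4.42, 4.67 and 0.155 FPKM. Cars2 ended mainly at chr8:11514012-11514191 with 5.01, 5.23 and 2.18 FPKM, and in replicate 3 a last exon at chr8:11526024-11526069 carried 2.64 FPKM. The last exon of Tars2 at chr3:95739974-95740319 held 95.04, 49.8 and 19.97% of its gene's last exon sum. For these 3 genes the FPKM of a given last exon ranged more widely between libraries than the gene value did. Sgpp2 overlaps Farsb and Naxd overlaps Cars2 on the other strand, covering 12.3 and 22.3% of their transcripts.

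Some internal events were stable. Yars2 used alternative exon ends, with the exon at chr16:16306463-16306618 at 63.7, 56.3 and 60.3% of the gene value and the exon at chr16:16306498-16306618 at 36.3, 43.7 and 39.7%, so the longer exon was the larger in each library. In Cars, transcripts that skip the exon at chr7:143592412-143592660 carried 4.36, 7.18 and 4.03 FPKM, which was 78.6% ± 3.89 of the gene value. In Vars2, transcripts that include the exon at chr17:35660214-35660284 held 66.3% ± 1.75 of the gene value, which came from first exons. They carried 1.54, 2.17 and 2.16 FPKM, close to the main last exon at 1.54, 2.18 and 2.17 FPKM. No event for skipping this exon was listed, so the rest is not a measure of skipping. In Wars, the start at chr12:108894069-108894137 held 97.2, 95.5 and 97.9% of the first exon sum. The Wars exon at chr12:108884265-108884348 was skipped at 1.46, 1.91 and 2.52 FPKM, the whole gene value in each library. The Wars last exon carried 0.052, 0.172 and 0.860 FPKM.

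Other internal events differed more between libraries. In Cars2 the exon at chr8:11529580-11529713 held 41.8, 69.8 and 88.4% of the gene value, lowest in replicate 1. That gene value came from last exons (5.50, 5.78 and 4.93 FPKM), against a first exon sum of 2.80, 4.44 and 4.64 FPKM. The part of this gap in the shares was not tested. In Tars2 transcripts that include the exon at chr3:95751506-95751630 held 11.4, 75.9 and 50.6% of the gene value. Transcripts that skip it held 3.69, 0.217 and 49.4%, highest in replicate 3. In replicate 1 the gene value came from last exons (6.67 FPKM), with a first exon sum of 1.01 FPKM. The low included share there is therefore not a measure of skipping. In Farsa the exon at chr8:84860906-84861043 held 59.7, 65.6 and 68.7%, a narrower range. In Aars2, transcripts that include the exon at chr17:45514785-45514893 held 87.2, 89.9 and 59.6% of the gene value (78.9% ± 16.8). Transcripts that skip it held 12.8, 10.1 and 12.3% (11.8% ± 1.46). In replicate 3 the Aars2 value came from the last exon (5.24 FPKM), with a first exon sum of 3.65 FPKM. The lower included share there is therefore not a measure of skipping. In Hars2 the included exon at chr18:36789367-36789609 held 78.2, 80.7 and 79.1%. An event for splicing of the intron at chr18:36786206-36787502 held 78.8, 80.7 and 22.5%. Another event for splicing of the same intron, listed in replicate 3 alone, held 56.6% there. Splicing of that intron as a whole was therefore not low in replicate 3. In Lars2 the exon at chr9:123436117-123436400 held 81.8% ± 6.67.

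The missing Aars could be found by position. Exosc6, a gene of the RNA exosome, overlaps 1326 bases of the end of Aars on the same strand, and events across the Aars locus at chr8:111033144-111057664 carried the Exosc6 identifier. Read that way, the value was 26.5, 21.9 and 20.1 FPKM (22.8 ± 3.302). That would place it between Dars and Gars, overlapping both. Reads of Exosc6 itself cannot be told apart from it at the shared end. The first exon sum was 26.5, 4.72 and 20.1 FPKM, low in replicate 2, while the last exon stayed at 26.2, 21.9 and 19.6 FPKM. Aars2 stood at 4.49, 4.32 and 5.24 FPKM.

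Members of the multisynthetase complex had a median of mean FPKM of 12.7 (7 genes), against 7.26 for the 11 other listed cytosolic members. The order did not hold in every library: the complex median was 9.17, 10.3 and 15.4 FPKM in replicates 1, 2 and 3, and that of the others 9.76, 9.18 and 6.36 FPKM. Replicate 1 had the order reversed, and the gap lay mostly in replicate 3. The 7 were Dars, Eprs, Iars, Kars, Lars, Qars and Rars, and they ranged from 5.06 for Lars to 26.5 for Dars. Their scaffolds differed from each other: Aimp1 stood at 19.0, 21.8 and 18.8 FPKM, Eef1e1 at 6.30, 6.77 and 4.94 FPKM, and Aimp2 at 2.80, 2.45 and 3.51 FPKM. The libraries of the 3 scaffold genes did not overlap. Of synthetases outside the list, Mars, the methionine enzyme of the complex, stood at 7.87 ± 1.46 FPKM and Tarsl2, another threonine enzyme, at 3.29 ± 1.23 FPKM, and Mars2 was not listed.

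Mitochondria have no glutamine enzyme of their own and make glutaminyl-tRNA with the amidotransferase of Gatb, Gatc and Qrsl1. Gatb stood at 8.12 ± 0.46 FPKM and Gatc at 7.75 ± 0.99 FPKM, whereas Qrsl1 stood at 1.69 ± 0.49 FPKM, lower than both in each library. Mtfmt, which formylates the initiator methionyl-tRNA, stood at 3.57 ± 0.81 FPKM.

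The promoter letters and the levels did not line up clearly. The 4 listed members with the match, Gars, Iars, Tars and Yars, had a median of mean FPKM of 14.5 (7.26 to 26.6), and the 7 listed cytosolic members with a promoter and no match had 12.7 (6.49 to 26.5). Genes of the amino acid response itself were spread widely in these livers. Of 18 such genes, 15 were listed and 12 had a mean of at least 1 FPKM. Atf5 stood at 118 ± 9.15 FPKM and Atf4 at 50.2 ± 6.99 FPKM, the highest of the list. Shmt2 (28.6 ± 10.4 FPKM), Slc3a2 (18.7 ± 1.78) and Eif4ebp1 (14.9 ± 2.52) came next. Trib3 stood at 2.43 ± 0.52 FPKM and Ddit3 at 2.56 ± 0.75 FPKM. Asns, the asparagine synthetase, had no row in replicates 1 and 2 and stood at 0.060 FPKM in replicate 3. Psat1 stood at 0.125 and 0.063 FPKM and had no row in replicate 3, and Phgdh, Slc7a5 and Slc7a11 were not listed. Nars, whose enzyme uses asparagine, stood at 27.8 FPKM or more in the same libraries.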

How the data were processed

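RNA-seq event tables of 3 wild-type mouse liver libraries were used. The authors deposited, per the file headers, FPKM values for transcript events, with the type of event and the Ensembl identifier of a reference gene. No source used here names the program that made these tables. Tools listed in the submitters' processing notes, with no role given, were HISAT2 2.0.1, HTSeq 0.6.1 and cutadapt 1.9.1, with mm9 as the build. The positions fit GRCm38 instead, since 82.0 to 82.7% of first exons lay exactly at an annotated first exon of GENCODE M21. No counts were available, so the depth is unknown.

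Identical rows were removed (1440 to 1519 per library), leaving 71716 to 74243 events per library. Of 952 member events, 949 lay on the annotated strand and within the annotated span. Members were taken by identifier. For the background genes, events went to the gene with the same exon position, failing that to one sharing a splice site, and failing that by identifier. The gene value, described with the results, was checked on simulated data in which every transcript had a listed first exon. The outcome was therefore fixed, and it does not cover genes whose starts are partly missing. Levels were compared as log2(FPKM + 1), the pseudocount being 1 FPKM, on which scale differences of low genes are understated. With 1 group, no test was run. Shared sequence was searched with BLAST 2.17.0 among GENCODE transcripts (95% identity or more, over at least 50 bases). Tables were handled with Python 3.11.15, pandas 2.3.3 and numpy 2.4.6.

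The members, lists and tests were chosen with earlier results of these data known. Named with values per library were the 5 highest and 5 lowest members of each class, the pairs with a difference over 3 SD or a change of sign, the 5 largest CVs among means of at least 1 FPKM, and Gars and Kars. Events were named where at least 2 first or last exons each held 10% or more, or where an internal event held at least 10% of the gene value in each library. The latter were narrowed to 10 to 90% after values were seen. For Qars, Hars2, Kars and Farsa, which had many, examples are given. Some events outside this rule are given too, among them the Qars retained intron, at 9.50% of the gene value in replicate 2. The alternatives tried were the end that gives the value, the pseudocount, a minimum mean, scaling, the strand and span, identical rows, and leaving out each library. Placing Aars by position and leaving out Lars2 were added after seeing the data. Proteins were not used here, and no genome sequence was read.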

Additional observations from a re-analysis of the deposited data

How the results depend on the processing

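No paired analysis was possible because there is only 1 group. Reading last exons alone moved the most: the median member level became 2.75 in place of 2.96 on the log2(FPKM + 1) scale, the class difference 0.83 in place of 1.01 (17 cytosolic and 14 mitochondrial members), the median within amino acid difference -0.13 in place of 0.87, the count of pairs with the cytosolic enzyme higher 6 of 12 in place of 10 of 15, and the difference of Wars and Wars2 -0.48 in place of 0.68. First exons alone gave a within amino acid difference of 0.74 and a pseudocount of 0.1 FPKM gave 1.13. Leaving out a library gave 0.68 to 1.00 for it. The class difference kept its sign under all 13 alternatives run, from 0.83 to 1.14, Lars2 left out giving 1.09. For the deviations, leaving out a library gave -0.071 to -0.026 for the cytosolic class in replicate 1, -0.018 to 0.071 in replicate 2, -0.067 to -0.030 for the mitochondrial class in replicate 1 and 0.0026 to 0.030 in replicate 2. Of the other alternative values, 58 for the comparisons and 324 for single genes and pairs stayed close to the main value. Close meant within 1 SD, except for the counts of pairs, which have no SD and were 8 to 11 here. For single genes and pairs, 19 values moved by more than 1 SD. Signs also changed for values near 0: Yars and Yars2 (0.062) gave -2.61 with last exons alone and -0.16 without replicate 2, the cytosolic deviation in replicate 2 gave 0.00056 with a pseudocount of 0.1 FPKM, and the mitochondrial one in replicate 3 gave -0.0026 without replicate 1. Without depth, low members such as Wars2 and Pars2 cannot be given a counting error, and a missing row cannot be told from a level of 0.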

Other observations

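Genes on either side of the charging step were also listed. The cytosolic elongation factors that carry and move charged transfer RNAs were far more abundant than any synthetase, with Eef1a1 at 1588, 1493 and 2009 FPKM and Eef2 at 265, 282 and 285 FPKM. Eef1g (54.6 ± 1.63 FPKM), Eef1b2 (47.4 ± 3.55) and Eef1d (32.8 ± 1.98), which recharge the first of these factors, were nearer to the highest cytosolic synthetases. In mitochondria, Tufm stood at 38.3, 40.4 and 37.7 FPKM and Gfm1 at 25.3, 29.8 and 25.0 FPKM, above each listed mitochondrial synthetase but Lars2. Tsfm, at 7.78 ± 1.27 FPKM, and Gfm2, which acts in ribosome recycling, at 6.48 ± 1.73 FPKM, fell within the range of the synthetases.

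The 4 genes of separate proofreading proteins, which remove a wrongly joined amino acid, were all listed, with means from 1.54 to 6.37 FPKM. Dtd1 stood at 6.37 ± 0.32 FPKM, Aarsd1 at 5.55 ± 1.83 FPKM, Dtd2 at 3.41 ± 0.17 FPKM and Prorsd1 at 1.54 ± 0.55 FPKM. Aarsd1 was highest in replicate 2, at 7.66 FPKM against 4.52 and 4.47 FPKM.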
